A study of Mus musculus with 15 samples.

Results

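The genes of the enzymes that conjugate foreign and endogenous compounds in phase II metabolism were followed in ileum tissue of mice given proanthocyanidins (PAC), the polymeric flavanols of grape. Members were all genes of the glutathione S-transferases of the alpha, kappa, mu, omega, pi and theta classes (Gst), the UDP-glucuronosyltransferases (Ugt) and the sulfotransferases (Sult) that had a mean of at least 0.1 FPKM over 15 mice. FPKM is the number of fragments of a gene scaled to the length of its transcript and to the number of fragments of the library. There were 37 such genes of the 17752 genes listed in any mouse, namely 19 Gst, 10 Ugt and 8 Sult genes, and another 13 genes of these names were under the limit. Of the 37 members, 30 had a mean of at least 1 FPKM and 21 of at least 10 FPKM.

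The study dosed 3 groups of 5 female C57BL/6 mice (C57BL/6JOlaHsd by the methods of the study), 8 weeks of age by the labels and fed a purified control diet, by oral gavage every 2 days over 10 days. The water group received water, and the other groups received 200 mg/kg of a Sephadex fraction of grape PAC of low or of high molecular weight, named low PAC and high PAC here. The methods of the study name these fractions by their mean degree of polymerization as low and medium, so that "high" is the word of the labels. RNA from ileum tissue, labelled as intestinal tissue, was sequenced as 1 library per mouse, and total expected counts lay between 15963086 and 17903886 per mouse. Of the markers of the distal ileum, Fabp6, the ileal bile acid-binding protein, lay between 4196 and 10619.9 FPKM. Slc10a2, Slc51a, Slc51b and Fgf15 were at 57.6 FPKM or more in every mouse, whereas Nr0b2 was low, between 0.61 and 2.97 FPKM. All 4 liver markers were under 1 FPKM. In tissue RNA, fewer cells of a type and less RNA per cell cannot be told apart.

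Glutathione S-transferases join glutathione to electrophiles, UDP-glucuronosyltransferases of the endoplasmic reticulum transfer glucuronic acid from UDP-glucuronic acid, and cytosolic sulfotransferases transfer a sulfonate group from the donor PAPS. The conjugates are more water-soluble and are carried out of the cell by efflux pumps. The epithelium of the small intestine is a known site of this metabolism for dietary phenols, and many of the genes are known targets of the transcription factors Nrf2 and the aryl hydrocarbon receptor.

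Each class was dominated by a few genes. Gstp1, a pi class transferase, was the most abundant member, with 402 ± 32.6 FPKM (mean ± SD, n = 5) in the water group, and it ranked 182 among all genes by mean FPKM. With Gsto1, an omega class enzyme that reduces dehydroascorbate, it held most of the summed Gst FPKM of the water mice, 41.6% for Gstp1 and 28.1% for Gsto1. Ugt2b34, of the 2B family, held 61.6% of the summed Ugt FPKM in the water group, ahead of Ugt1a7c with 13.3% and Ugt1a1, the bilirubin-conjugating enzyme, with 13.2%. In the Sult genes the FPKM was spread more evenly, with 36.6% in Sult2b1, which acts on cholesterol and other sterols, 32.0% in Sult1d1, which acts on catecholamines and phenols, and 28.1% in Sult1b1, which acts on phenols and thyroid hormones. The summed FPKM of the members in the water group were 964.5 ± 38.3 for Gst, 354 ± 9.69 for Ugt and 411 ± 25.0 for Sult.

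Several of these levels were measured on near-identical sequence. By the GENCODE annotation of GRCm38 (the build mm10 that the authors used), Gstp1 (chromosome 19, 4035407 to 4037985) and Gstp2 (chromosome 19, 4040285 to 4046023) lie next to each other on the minus strand. Of all 100-base windows of the transcript of Gstp1, 52.8% also occurred in Gstp2. Ugt1a1 and Ugt1a7c belong to 1 complex on chromosome 1, in which the genes have their own first exon and share the last exons, and 57.2% of the windows of Ugt1a1 occurred in Ugt1a7c. The deposited expected counts of these 4 genes were fractions in 15 of 15 mice, so that reads were divided between genes, and their single levels are less certain than their sums. The counts of Gsta1, of whose windows 81.8% occurred elsewhere, for the most part in Gm3776, were fractions in 14 of 15 mice. Those of Gstm1 and Gstm3, with 7.73% and 13.8% of windows shared, were fractions in all 15. None of the windows of Gsta4, Gsto1, Gstm5, Gstt1, Ugt2b35, Sult1b1, Sult1d1 or Sult2b1 was shared.

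The sequence before the start of transcription is shown for these 4 genes because each gene has its own start while the transcripts share much of their sequence. The stretches are the 250 bases before the RefSeq start on GRCm38.p6, written 5′ to 3′ in the direction of the gene, at chr19:4037913-4038162 on the minus strand for Gstp1, chr19:4042222-4042471 on the minus strand for Gstp2, chr1:88211709-88211958 on the plus strand for Ugt1a1 and chr1:88094751-88095000 on the plus strand for Ugt1a7c. By the GENCODE coordinates given above, the stretch of Gstp2 lies within its gene and that of Gstp1 overlaps the start of its gene. The annotations thus place these starts differently. Capitals mark GCGTG, the core of the dioxin response element that the aryl hydrocarbon receptor binds, on either strand. Of these 4 stretches, the only match was in Gstp1.
Gstp1: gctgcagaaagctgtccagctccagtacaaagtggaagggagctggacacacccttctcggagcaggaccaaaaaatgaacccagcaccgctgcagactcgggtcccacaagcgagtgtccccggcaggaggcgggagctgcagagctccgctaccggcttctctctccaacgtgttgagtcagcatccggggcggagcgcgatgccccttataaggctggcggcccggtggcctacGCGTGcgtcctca
Gstp2: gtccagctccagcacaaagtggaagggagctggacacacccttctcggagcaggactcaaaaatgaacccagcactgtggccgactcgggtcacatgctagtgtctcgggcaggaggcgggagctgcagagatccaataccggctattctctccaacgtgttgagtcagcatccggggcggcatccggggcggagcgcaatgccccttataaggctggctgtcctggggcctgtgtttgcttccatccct
Ugt1a1: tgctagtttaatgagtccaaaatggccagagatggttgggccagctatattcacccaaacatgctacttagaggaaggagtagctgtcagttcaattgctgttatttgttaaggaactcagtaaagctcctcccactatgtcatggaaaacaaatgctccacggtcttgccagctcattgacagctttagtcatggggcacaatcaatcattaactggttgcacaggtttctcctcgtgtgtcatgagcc
Ugt1a7c: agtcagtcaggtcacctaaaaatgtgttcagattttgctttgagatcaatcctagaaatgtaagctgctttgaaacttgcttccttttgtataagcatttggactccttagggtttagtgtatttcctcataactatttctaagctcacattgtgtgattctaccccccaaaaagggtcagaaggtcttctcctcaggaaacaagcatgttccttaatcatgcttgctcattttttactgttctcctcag
In a global alignment, 208 of 250 bases (83.2%) were the same between Gstp1 and Gstp2. The mean FPKM of Gstp1 was 420 and that of Gstp2 was 68.5. The stretches of Ugt1a1 and Ugt1a7c shared 149 of 250 bases (59.6%), and the mean of these genes was 45.0 and 44.9 FPKM. The identity of unrelated stretches was not measured, so no likeness is read from these shares. The levels of all 4 genes rest on reads divided between genes, and a relation of sequence to level was not tested. RefSeq starts were at hand for 33 of the 37 members and not for Gsta4, Gstt2, Sult4a1 and Ugt1a6b. In windows of 300 bases (250 before and 50 after the start), read on both strands, GCGTG occurred in 8 of the 33 members, and in 35.2% of all genes with such a window. The letters TGACNNNGC, the core of the antioxidant response element that Nrf2 binds, occurred in 3 of the 33 (Gsta3, Gstm5 and Gstm7), and in 14.0% of all genes. A match is a description of the letters and not a site of binding.

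**Figure D1:**
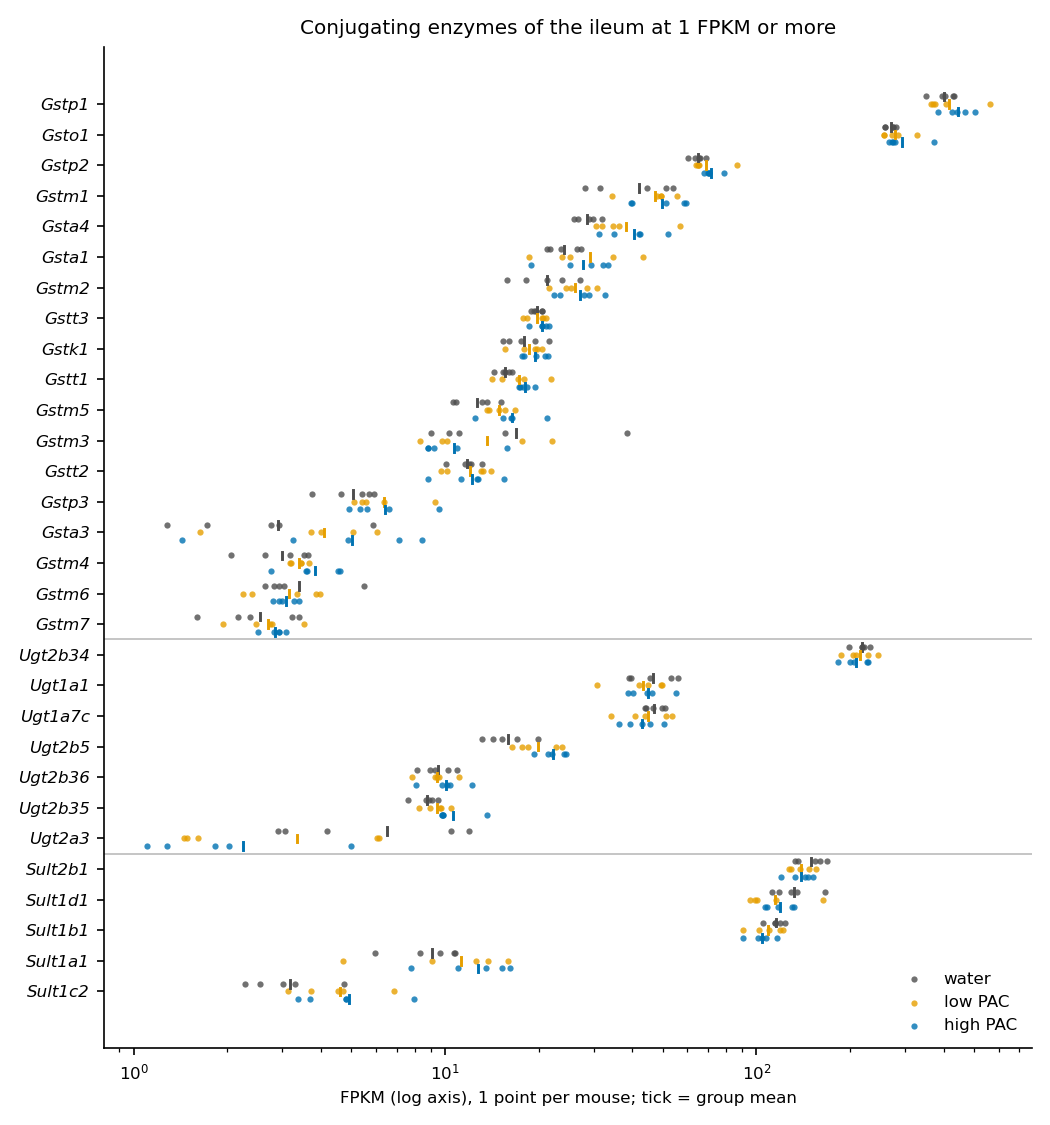
FPKM on a log axis of the 30 members with a mean of at least 1 FPKM, by class and level, with 1 point per mouse and a tick at the mean of each group of 5 mice. High PAC and water mice overlap for all members shown but Gstt1 and Ugt2b35, and the points spread most for Ugt2a3, Gsta3 and Gstm3.

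The question for each PAC fraction was whether it changed the expression of these genes in the ileum. After correction over the 14386 genes that passed edgeR's filter on low counts, none of the 35 members tested differed from the water group with either fraction (edgeR's quasi-likelihood test, Benjamini-Hochberg adjusted p under 0.05). Gsto2 and Sult5a1, at 0.52 FPKM or less in every mouse, did not pass the filter. The smallest adjusted p of a member was 0.205 with high PAC and 0.976 with low PAC, and DESeq2 and limma also called 0 members. Over all genes, 2 (0.0139%) were called with high PAC and 0 (0%) with low PAC.

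With high PAC, 7 of 35 members (20.0%) had an unadjusted p under 0.05, against 14.8% of all genes tested, so that the share is near the background. Of these, 3 members were higher (Ugt2b5, Gsta4 and Gstm5) and 4 lower (Ugt2a3, Sult1b1, Sult2b1 and Sult6b1), where 4.37% of all genes were higher and 10.4% lower at that limit. The split depended on the scaling, since upper-quartile in place of TMM factors gave 6 higher and 3 lower members. The median log2 fold change was 0.06 over the members and 0.00 over all genes, while the median size of the change, without its sign, was 0.23 over the members and 0.14 over all genes. By class, 14 of 18 Gst genes were above 0 and 4 of 7 Sult genes below it, and the Ugt genes were split 5 to 5. Of all genes tested, 50.5% were above 0. Water mice 1 and 3 had the least smooth muscle RNA and water mice 4 and 5 the highest score of proximal against distal markers (1.35 and 1.55). Without mice 1 and 3, a choice made after seeing the data, 3 members had an unadjusted p under 0.05, and without mice 4 and 5 there were 10.

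With low PAC, 2 of 35 members (5.71%; Gsta4 and Ugt2b5, both higher) had an unadjusted p under 0.05, against 3.61% of all genes (1.4% higher and 2.21% lower). This count was 1 without water replicate 1 or 3, low PAC replicate 1 or high PAC replicate 2, and 4 without water replicate 2 or low PAC replicate 5. The median log2 fold change of the members was 0.04, and that of all genes was -0.01. Above 0 were 20 of 35 members, against 45.5% of all genes. No member was without overlap between low PAC and water in FPKM, which 0.605% of all genes were.

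**Figure D2:**
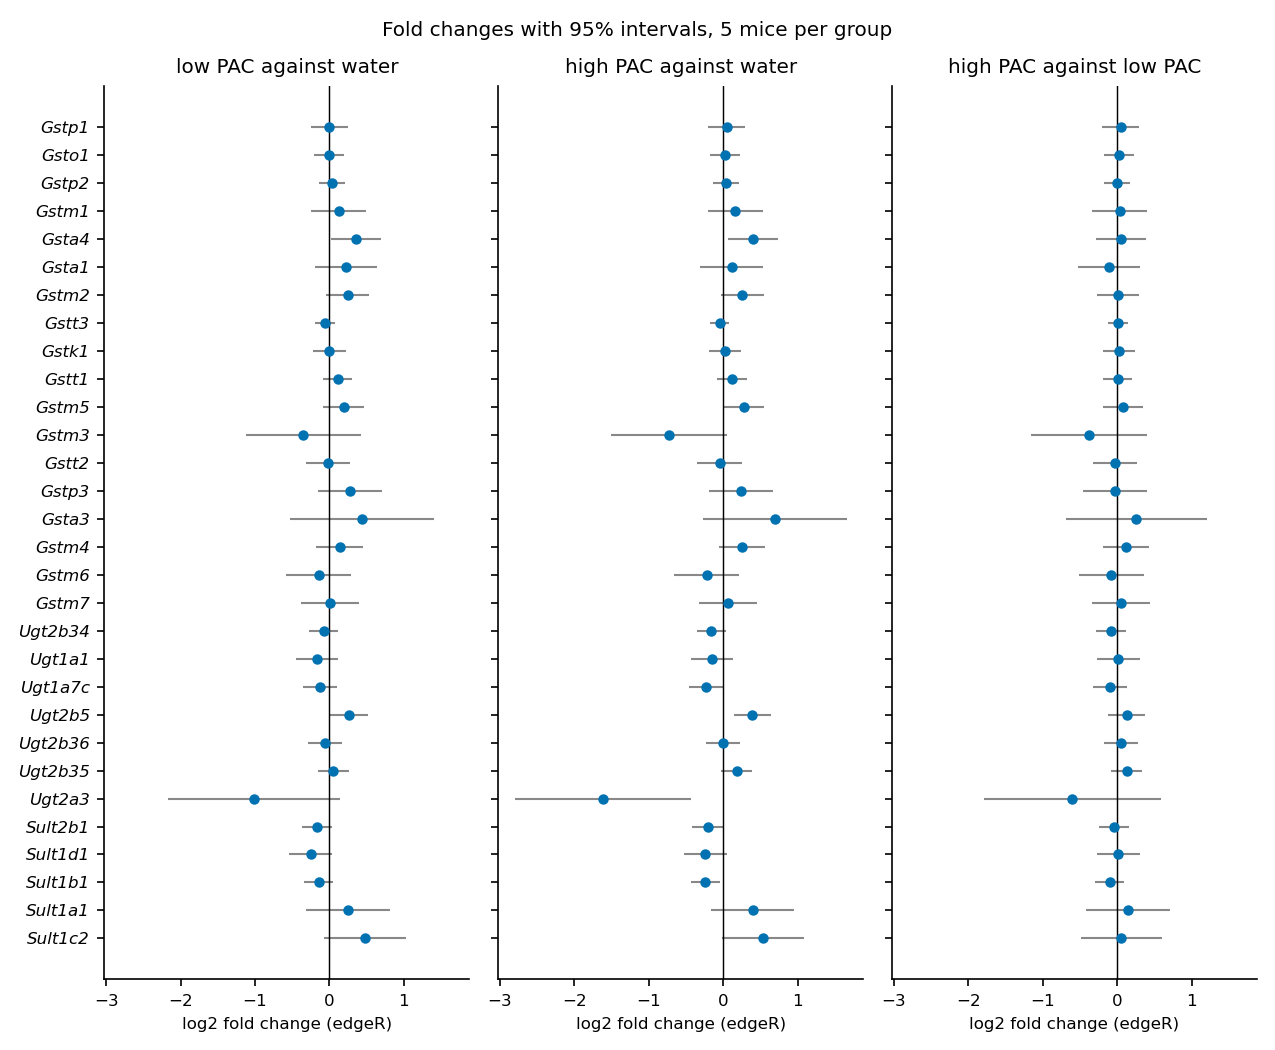
Log2 fold changes (points) with 95% intervals (lines) from edgeR for the 30 members with a mean of at least 1 FPKM, for low PAC against water, high PAC against water and high PAC against low PAC. Most intervals cross 0, with the widest for Ugt2a3, Gsta3 and Gstm3.

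Of the Gst genes, Gsta4 (chromosome 9, 78182774 to 78209349, plus strand), which conjugates the lipid peroxidation product 4-hydroxynonenal, had the smallest unadjusted p with each fraction. Gsta4 was at 29.8, 31.8, 26.7, 26.0 and 29.0 FPKM in water mice 1 to 5, at 36.1, 34.7, 30.5, 57.0 and 32.0 FPKM with low PAC and at 34.9, 31.3, 52.1, 42.3 and 42.0 FPKM with high PAC. Of the 5 mice of each PAC group, 4 were above every water mouse, and the highest values were those of low PAC replicate 4 and high PAC replicate 3. The difference of high PAC from water was 0.40 on the log2 scale (SE 0.16, unadjusted p = 0.0217, adjusted p = 0.274), with an exact permutation p of 0.0159 for log2(FPKM + 0.1). The difference of low PAC from water was 0.36 on the log2 scale (SE 0.16, unadjusted p = 0.0396, adjusted p = 0.976), with an exact permutation p of 0.0159, and it was 0.17 without low PAC replicate 4.

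Gstm5, a mu class transferase (chromosome 3, 107895821 to 107898686), showed a smaller difference in the same direction. Gstm5 was at 10.9, 13.6, 10.6, 15.1 and 13.2 FPKM in water mice 1 to 5, at 15.6, 14.9, 13.8, 16.8 and 13.7 FPKM with low PAC and at 15.3, 16.4, 21.3, 12.5 and 16.3 FPKM with high PAC. The high PAC mice were above every water mouse in 4 of 5 cases, and high PAC replicate 4 lay within the water range. The difference from water was 0.27 on the log2 scale (SE 0.13, unadjusted p = 0.0488, adjusted p = 0.335) with high PAC and 0.19 on the log2 scale (SE 0.13, unadjusted p = 0.157, adjusted p = 0.976) with low PAC, and the exact permutation p was 0.0635 and 0.0556. Leaving out water mice 1 and 3 reduced the difference to 0.16 with high PAC and 0.08 with low PAC. Leaving out water mice 4 and 5 raised it to 0.37 and 0.28.

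Gstt1, a theta class transferase that acts on small halogenated compounds, was 1 of 2 members whose FPKM did not overlap between high PAC and water, as 4.64% of all genes did. Gstt1 was at 16.1, 15.4, 14.3, 16.4 and 15.6 FPKM in water mice 1 to 5, at 15.2, 14.2, 17.9, 21.9 and 17.2 FPKM with low PAC and at 17.9, 18.3, 19.5, 17.3 and 17.4 FPKM with high PAC. The exact permutation p was 0.00794, the smallest that 5 against 5 mice can give, and 0.0317 on CPM scaled by TMM factors. On the scale of the counts the difference was 0.12 on the log2 scale (SE 0.09, unadjusted p = 0.230, adjusted p = 0.545). The other member without overlap was Ugt2b35, of the 2B family. Ugt2b35 was at 7.59, 9.48, 8.91, 8.66 and 9.11 FPKM in water mice 1 to 5, at 8.95, 9.66, 8.25, 9.68 and 10.5 FPKM with low PAC and at 9.78, 9.82, 13.7, 9.88 and 9.75 FPKM with high PAC. Its difference with high PAC was 0.18 on the log2 scale (SE 0.10, unadjusted p = 0.0827, adjusted p = 0.390), and its exact permutation p was 0.00794 on FPKM and 0.0873 on CPM scaled by TMM factors. Without high PAC replicate 3, the mouse at 13.7 FPKM, the log2 difference was 0.11. FPKM ran higher in the high PAC group for genes in general, since 3.99% of all genes were higher without overlap and 0.646% lower. The FPKM of high PAC replicate 3 summed to 677075, where the other 14 mice were between 502110 and 573980.

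The abundant Gst genes differed little between groups. Gstp1 was at 431, 349.9, 404, 427 and 396 FPKM in water mice 1 to 5, at 369.6, 375, 407, 562 and 365 FPKM with low PAC and at 467, 425, 504, 382 and 442 FPKM with high PAC. Low PAC replicate 4 stood above all other mice, and the groups overlapped otherwise. Gsto1 was at 275, 281, 276, 259.9 and 259 FPKM in water mice 1 to 5, at 285, 272, 257, 328 and 256 FPKM with low PAC and at 267, 273, 372, 275 and 279 FPKM with high PAC. Here high PAC replicate 3 was the highest. Gstp2 was at 63.7, 60.3, 65.9, 68.9 and 65.4 FPKM in water mice 1 to 5, at 65.4, 65.1, 65.0, 86.5 and 63.8 FPKM with low PAC and at 69.8, 70.2, 78.5, 70.5 and 67.9 FPKM with high PAC. The fold change of high PAC over water was 1.03 (95% interval 0.869 to 1.22) for Gstp1, 1.01 (95% interval 0.881 to 1.17) for Gsto1 and 1.03 (95% interval 0.912 to 1.16) for Gstp2, with adjusted p between 0.831 and 0.938. For low PAC over water it was 0.997 (95% interval 0.840 to 1.18), 0.997 (95% interval 0.867 to 1.15) and 1.03 (95% interval 0.911 to 1.16) in the same order. The exact permutation p of Gstp2 with high PAC was 0.0159 on FPKM and 0.476 on CPM scaled by TMM factors.

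None of the remaining Gst genes had an unadjusted p under 0.05 against water with either fraction. Gstm1, Gstm2, Gstm4 and Gstm7 of the mu class had log2 fold changes between 0.06 and 0.26 with high PAC and between 0.01 and 0.25 with low PAC. The mean of Gstm6 ran the other way, with 3.39 FPKM with water, 3.16 with low PAC and 3.08 with high PAC. Gstm3 was the exception by spread, with 16.9 ± 12.3 FPKM in the water group, where water replicate 5 stood at 38.4 and the other 4 mice at 15.6 or less. Its log2 fold change with high PAC was -0.73 (SE 0.37, adjusted p = 0.367). Gsta3 had a CV of 61.8% in the water group, and its fold change with high PAC had a 95% interval from 0.830 to 3.15. At the other end, Gsto1 and Gstt3 had a CV of 3.73% and 3.76% between water mice, and the fold change of Gstt3 with high PAC was 0.966 (95% interval 0.881 to 1.06).

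Among the Ugt genes, Ugt2b5 (chromosome 5, 87124960 to 87140318, minus strand), a 2B enzyme that acts on steroids and drugs, had the smallest unadjusted p of any member. Ugt2b5 was at 15.3, 19.9, 17.0, 14.3 and 13.1 FPKM in water mice 1 to 5, at 22.7, 16.4, 17.7, 18.5 and 23.8 FPKM with low PAC and at 24.1, 22.0, 24.5, 19.4 and 21.5 FPKM with high PAC. With high PAC, 4 of 5 mice were above every water mouse, and with low PAC 2 of 5. The difference from water was 0.39 on the log2 scale (SE 0.12, unadjusted p = 0.00468, adjusted p = 0.205) with high PAC, with an exact permutation p of 0.0159, and 0.26 on the log2 scale (SE 0.12, unadjusted p = 0.0426, adjusted p = 0.976) with low PAC, with an exact permutation p of 0.0794. Without water mice 4 and 5, which were the lowest 2 of the group, it was 0.24 with high PAC and 0.11 with low PAC. Of the windows of its transcript, 24.7% occurred in Ugt2b38, which was listed in 1 mouse. The share of Ugt2b5 in the summed Ugt FPKM was 4.49% with water, 5.71% with low PAC and 6.49% with high PAC.

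Ugt2a3 (chromosome 5, 87324972 to 87337195, minus strand), whose human counterpart acts on bile acids, was the only member with a fitted difference of at least 2-fold from water. It reached this with both fractions, as did 0.549% of all genes with high PAC and 0.619% with low PAC. Ugt2a3 was at 2.91, 3.07, 4.18, 10.5 and 12.0 FPKM in water mice 1 to 5, at 1.45, 1.48, 1.61, 6.03 and 6.15 FPKM with low PAC and at 2.02, 4.98, 1.82, 1.10 and 1.28 FPKM with high PAC. The level was high in 2 mice each of the water and the low PAC group and in high PAC replicate 2, and the groups overlapped. The difference from water was -1.62 on the log2 scale (SE 0.56, unadjusted p = 0.0105, adjusted p = 0.247) with high PAC and -1.01 on the log2 scale (SE 0.54, unadjusted p = 0.0812, adjusted p = 0.976) with low PAC, and the exact permutation p was 0.0476 and 0.175. Without water mice 4 and 5 it was -0.71 (adjusted p = 0.537) with high PAC and -0.11 (adjusted p = 0.970) with low PAC. Of the 7 proximal markers, Gata4, a transcription factor of the proximal small intestine, was highest in the same mice of each group as Ugt2a3, and was singled out after its values were seen. Gata4 was at 4.58, 1.69, 4.04, 12.5 and 12.7 FPKM in the water mice, at 0.480, 0.910, 1.97, 6.23 and 4.19 FPKM with low PAC and at 0.580, 4.23, 0.750, 0.720 and 0.390 FPKM with high PAC. Lct (lactase) and Slc2a2 (a glucose transporter) were also highest in water mice 4 and 5 and in high PAC replicate 2, but with low PAC they departed from this order in replicates 3 and 4. Lct was at 10.4, 1.10, 33.0, 29.4 and 64.8 FPKM and Slc2a2 at 7.93, 1.39, 18.1, 6.86 and 15.8 FPKM in the low PAC mice. Npc1l1, a cholesterol transporter, was highest in the same mice as Ugt2a3 in the water group alone, Cybrd1 in the high PAC group alone, and Fabp1 and Slc40a1 in none of the groups. Low PAC replicate 4 had a position score of -0.34, number 4 of the 5 in its group. The part of tissue position in the difference of Ugt2a3 between groups was not tested, and its relation to a score of position across mice is given with those of the other members.

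The other 3 abundant Ugt genes had a lower mean FPKM in both PAC groups than with water, with no unadjusted p under 0.05. Ugt2b34 was at 219, 219, 231, 222 and 199 FPKM in water mice 1 to 5, at 209, 204, 186, 229 and 246 FPKM with low PAC and at 229, 227, 182, 206 and 199 FPKM with high PAC. Ugt1a1 was at 45.7, 39.5, 53.2, 39.1 and 56.1 FPKM in water mice 1 to 5, at 44.9, 30.8, 49.7, 42.0 and 49.3 FPKM with low PAC and at 44.7, 46.3, 38.6, 40.0 and 55.1 FPKM with high PAC. Ugt1a7c was at 43.9, 46.6, 44.2, 49.9 and 50.8 FPKM in water mice 1 to 5, at 40.9, 34.0, 43.8, 51.5 and 53.6 FPKM with low PAC and at 42.8, 45.4, 39.3, 36.4 and 50.7 FPKM with high PAC. All of these groups overlapped. The fold change of high PAC over water was 0.896 (95% interval 0.781 to 1.03) for Ugt2b34, 0.902 (95% interval 0.740 to 1.10) for Ugt1a1 and 0.854 (95% interval 0.728 to 1.00) for Ugt1a7c, with adjusted p between 0.340 and 0.593. With low PAC it was 0.947 (95% interval 0.826 to 1.09), 0.892 (95% interval 0.732 to 1.09) and 0.914 (95% interval 0.780 to 1.07) in the same order. Without single mice the log2 difference with high PAC ran from -0.21 to -0.07 for Ugt2b34, from -0.23 to -0.06 for Ugt1a1 and from -0.29 to -0.16 for Ugt1a7c, and with low PAC from -0.13 to -0.03, from -0.22 to -0.08 and from -0.20 to -0.06 in the same order. The exact permutation p of Ugt1a7c with high PAC was 0.175 on FPKM and 0.0397 on CPM scaled by TMM factors. Ugt2b36, at about 10 FPKM, had a fold change of 0.995 (95% interval 0.850 to 1.17) with high PAC. The 3 Ugt members under 1 FPKM (Ugt1a2, Ugt1a6a and Ugt1a6b) had expected counts between 4.43 and 81.9 per mouse.

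The 3 abundant sulfotransferases were lower on average in both PAC groups. Sult1b1 was at 115, 105, 124, 119 and 115 FPKM in water mice 1 to 5, at 110.0, 102, 90.6, 119 and 122 FPKM with low PAC and at 102, 117, 105, 107 and 90.6 FPKM with high PAC. With high PAC, replicates 1, 3 and 5 were below every water mouse, replicate 3 at 104.6 against 105.4 FPKM in the lowest of them. Sult2b1 was at 168, 133, 159.8, 155 and 136 FPKM in water mice 1 to 5, at 138, 127, 147, 156 and 129 FPKM with low PAC and at 144, 152, 120.1, 133 and 147 FPKM with high PAC. Sult1d1 was at 112, 118, 135, 129 and 166 FPKM in water mice 1 to 5, at 116, 95.2, 99.3, 100.4 and 164 FPKM with low PAC and at 107, 130.4, 132, 117 and 109 FPKM with high PAC. The groups of Sult2b1 and Sult1d1 overlapped in part. With high PAC the difference from water was -0.24 on the log2 scale (SE 0.09, unadjusted p = 0.0171, adjusted p = 0.266) for Sult1b1. It was -0.21 on the log2 scale (SE 0.10, unadjusted p = 0.0462, adjusted p = 0.329) for Sult2b1 and -0.24 on the log2 scale (SE 0.14, unadjusted p = 0.0971, adjusted p = 0.408) for Sult1d1. The exact permutation p on FPKM was 0.0714 for Sult1b1, 0.262 for Sult2b1 and 0.246 for Sult1d1, and on CPM scaled by TMM factors 0.0317, 0.0952 and 0.0794. With low PAC the log2 differences were -0.14, -0.17 and -0.25, with an adjusted p of 0.976 each. They moved to -0.09 without low PAC replicate 3 for Sult1b1, to -0.11 without water replicate 1 for Sult2b1 and to -0.41 without low PAC replicate 5 for Sult1d1, and that of Sult2b1 with high PAC to -0.12 without high PAC replicate 3. Without water mice 1 and 3 the difference of Sult2b1 with high PAC was -0.09, and without water mice 4 and 5 that of Sult1d1 was -0.15. Over the alternative fits, those without single mice aside, the low PAC difference ran from -0.16 to -0.09 for Sult1b1. It ran from -0.22 to -0.04 for Sult2b1 and from -0.29 to -0.16 for Sult1d1.

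Markers of enterocytes, the absorptive cells of the epithelium, were lower on average along with these sulfotransferases. With high PAC, 6 of 7 enterocyte markers were lower at an unadjusted p under 0.05, as were 10.4% of all genes, and 0 after correction, with a median log2 fold change of -0.42. With low PAC, 1 of 7 was lower at that limit, as were 2.21% of all genes, and 0 after correction, with a median of -0.23. Their summed FPKM was between 10283 and 13003 in the water mice, between 9534 and 11355 with low PAC and between 6817 and 10180 with high PAC, lowest in high PAC replicate 3. The part of the enterocytes in the differences of the members was not tested. The smaller Sult1a1, which acts on phenols, and Sult1c2 stood on the other side, with log2 fold changes of 0.39 and 0.53 with high PAC (adjusted p = 0.479 and 0.352). Sult6b1, which had a mean of 0.41 FPKM with water and 0.27 FPKM with high PAC, rests on 6 to 24 expected counts per mouse.

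**Figure D3:**
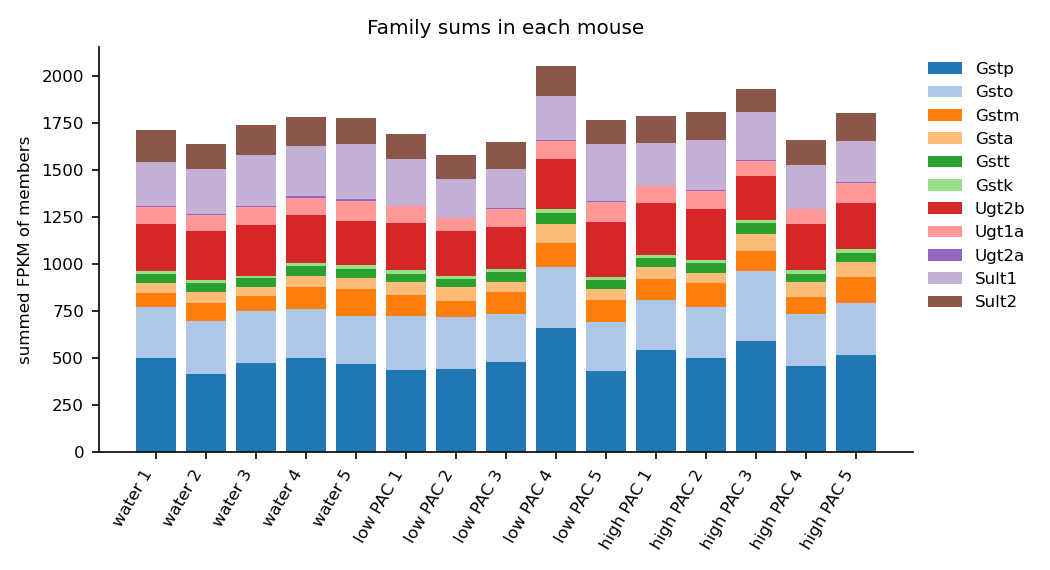
Summed FPKM of the members of each family in each of the 15 mice, stacked from 0, with families of a mean under 1 FPKM left out. The composition is alike in all mice, with Gstp, Gsto, Ugt2b, Sult1 and Sult2 holding most of the sum, and low PAC replicate 4 and high PAC replicate 3 have the highest bars.

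The summed FPKM per class differed little between groups. The Gst sum was 964.5 ± 38.3 with water, 1022 ± 151 with low PAC and 1072 ± 100.5 with high PAC. The Ugt sum was 354 ± 9.69, 347 ± 39.0 and 344 ± 24.4, and the Sult sum 411 ± 25.0, 381 ± 36.8 and 382 ± 21.3 in the same order (n = 5 each). Gstp1 held 41.6%, 40.5% and 41.4% of the Gst sum, and Ugt2b34 held 61.6%, 62.0% and 60.6% of the Ugt sum.

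By class, the Gsta sum was 55.7 ± 4.08 FPKM with water, 71.3 ± 19.5 with low PAC and 73.4 ± 13.2 with high PAC, with Gsta4 as its largest member. The Gstm sum was 101.8 ± 29.1, 111 ± 14.0 and 114 ± 15.7, the Gstp sum 472 ± 34.4, 491 ± 94.8 and 522 ± 49.9, and the Gstt sum 47.1 ± 1.41, 49.0 ± 5.22 and 50.7 ± 3.65 FPKM in the same order. The Ugt1a sum was 95.4 ± 8.38, 90.3 ± 14.7 and 90.4 ± 12.7 FPKM, and the Ugt2b sum was 252 ± 13.8, 254 ± 26.7 and 252 ± 18.1 FPKM. The Sult1 sum was 259.8 ± 24.3 FPKM with water, 239 ± 38.7 with low PAC and 241 ± 19.3 with high PAC. The range of every class sum overlapped between the groups. These sums were given no test.

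Many members lie in clusters of related genes, and the values differed within a cluster. On chromosome 5, Ugt2b34, Ugt2b35, Ugt2b36, Ugt2b5, Ugt2a3, Sult1b1 and Sult1d1 lie between 86889767 and 87569027, and their log2 differences between high PAC and water ran from -1.62 for Ugt2a3 to 0.39 for Ugt2b5. The 7 Gstm genes lie between 107895821 and 108044894 on chromosome 3, with differences from -0.73 for Gstm3 to 0.27 for Gstm5. As a description, with group means subtracted and over 15 mice that share the FPKM scaling of each library, the largest r between members was that of Gstp1 and Gstp2 (0.875), which share reads. It was followed by Gstm2 and Gsta3 (0.863), Sult1c2 and Gsto1 (0.850) and Gsto1 and Gsta4 (0.835).

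The 7 members under 1 FPKM rest on low counts. For Ugt1a2, Ugt1a6a and Ugt1a6b these counts were also fractions in 15 of 15 mice. Of the windows of Ugt1a6a and Ugt1a6b, 100% and 71.5% occurred in Ugt1a7c, and 62.9% of those of Ugt1a2 occurred in Ugt1a5. Their single levels are thus not measured apart from the rest of the complex. Ugt1a6b was at 0.742 ± 0.322 FPKM with water, 0.856 ± 0.571 with low PAC and 1.33 ± 0.788 with high PAC. Sult4a1, a sulfotransferase best known from brain, was at 0.590 ± 0.334, 0.894 ± 0.300 and 1.01 ± 0.207 FPKM in the same order, a log2 difference of 0.69 for high PAC against water (adjusted p = 0.361). Gsto2, the second omega class gene, was at 0.126 ± 0.111, 0.156 ± 0.0207 and 0.252 ± 0.0630 FPKM on 0 to 7 expected counts per mouse. Its exact permutation p between the fractions, 0.0159, rests on these counts.

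To compare the polymers by size, high PAC was set against low PAC at the same dose and schedule, as 1 pair of fractions. None of the 35 members differed after correction over all genes (smallest adjusted p 0.896; edgeR), and 1 member had an unadjusted p under 0.05 (2.86%, against 3.89% of all genes, 1.84% higher and 2.05% lower). This was Sult6b1, lower with high PAC, with a fold change of 0.592 (95% interval 0.377 to 0.932), and the count was 0 without low PAC replicate 2 or 4 or high PAC replicate 2 or 3. Above 0 were 23 of 35 members, against 51.4% of all genes. No member reached a fitted difference of 2-fold, as 0.5% of all genes did, and none was without overlap in FPKM, which 0.737% of all genes were (0.646% higher and 0.0904% lower). A p that misses the threshold does not show that the fractions act alike, and the intervals bound the difference. Of the 21 members at 10 FPKM or more, 19 had a 95% interval within 1.5-fold in both directions and 20 within 2-fold. Of the 30 members at 1 FPKM or more these numbers were 25 and 27. The widest intervals were those of Ugt2a3, with a fold change of 0.658 (95% interval 0.289 to 1.498), and Gsta3, with 1.19 (95% interval 0.619 to 2.30). The log2 difference of Ugt2a3, -0.60, ran from -1.15 to -0.27 without single mice. For Gsta4 the fold change of high over low PAC was 1.03 (95% interval 0.820 to 1.30), for Ugt2b5 1.09 (95% interval 0.919 to 1.30) and for Sult1b1 0.933 (95% interval 0.815 to 1.07). The same bounds against water held 1.5-fold for 21 of 30 members with high PAC and 22 of 30 with low PAC.

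Pieces of ileum can differ in their position along the gut and in the layers they hold, and the mice of a group did so. A position score was taken as the mean of centred log2(FPKM + 0.1) over 7 proximal markers minus the same mean over 6 markers of distal ileum. It lay between -0.14 and 1.55 in the water mice, highest in replicates 4 and 5, between -1.29 and 0.43 with low PAC and between -0.86 and 0.49 with high PAC. With group means subtracted, the log2(FPKM + 0.1) of 4 of the 21 members at 10 FPKM or more rose with the score across the 15 mice after adjustment over the 21 relations. Their r was at least 0.707, as was that of 1.66% of the 6193 other genes at this level outside the marker lists. Gstm1, a mu class transferase, had a Pearson r of 0.816 with the position score (permutation p = 0.000380, adjusted p = 0.00798) and a Spearman rho of 0.779 (permutation p = 0.000950, adjusted p = 0.0199). Gstk1, a transferase of mitochondria and peroxisomes, had a Pearson r of 0.742 with the position score (permutation p = 0.00198, adjusted p = 0.0152) and a Spearman rho of 0.718 (permutation p = 0.00334, adjusted p = 0.0351). Ugt1a7c had a Pearson r of 0.712 with the position score (permutation p = 0.00289, adjusted p = 0.0152) and a Spearman rho of 0.682 (permutation p = 0.00646, adjusted p = 0.0418). Sult1a1 had a Pearson r of 0.707 with the position score (permutation p = 0.00245, adjusted p = 0.0152) and a Spearman rho of 0.671 (permutation p = 0.00797, adjusted p = 0.0418). Gsta4 had a Pearson r of -0.415 with the position score (permutation p = 0.125, adjusted p = 0.263) and a Spearman rho of -0.543 (permutation p = 0.0396, adjusted p = 0.0923). Ugt2b5 had a Pearson r of -0.131 with the position score (permutation p = 0.637, adjusted p = 0.761) and a Spearman rho of -0.0821 (permutation p = 0.771, adjusted p = 0.900). The 2 mice whose score, with group means subtracted, lay farthest from the median were then removed. Without them r was 0.736 for Gstm1, 0.582 for Gstk1, 0.617 for Ugt1a7c, 0.661 for Sult1a1, -0.589 for Gsta4 and -0.220 for Ugt2b5.

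A second family of 69 relations was chosen after seeing the data. Gstm7 had a Pearson r of 0.845 with the position score (permutation p = 4.0e-05, adjusted p = 0.00276) and a Spearman rho of 0.889 (permutation p = 4.0e-05, adjusted p = 0.00276). Ugt2a3 had a Pearson r of 0.725 with the position score (permutation p = 0.00359, adjusted p = 0.0619) and a Spearman rho of 0.686 (permutation p = 0.00655, adjusted p = 0.0996). Gstm1 had a Pearson r of 0.765 with the smooth muscle score (permutation p = 0.000830, adjusted p = 0.0286) and a Spearman rho of 0.836 (permutation p = 0.000130, adjusted p = 0.00448). Of the 12328 other genes at 1 FPKM or more, 0.170% had an r with the position score as high as that of Gstm7, and 3.91% had an r with the smooth muscle score as high as that of Gstm1. With the 2 most distant mice removed in the same way, r was 0.764 for Gstm7, 0.660 for Ugt2a3 and 0.628 for Gstm1. Those markers summed to 212 and 186 FPKM in water mice 1 and 3 and to between 407 and 792 FPKM in the other 13 mice, and Gstm1 was at 28.1 and 31.6 FPKM in water mice 1 and 3 and between 34.5 and 59.6 FPKM in the others. None of the 30 members at 1 FPKM or more had an adjusted p under 0.05 with a score of B cell markers, which were abundant in some mice of every group (summed FPKM between 5.69 and 229).

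**Figure D4:**
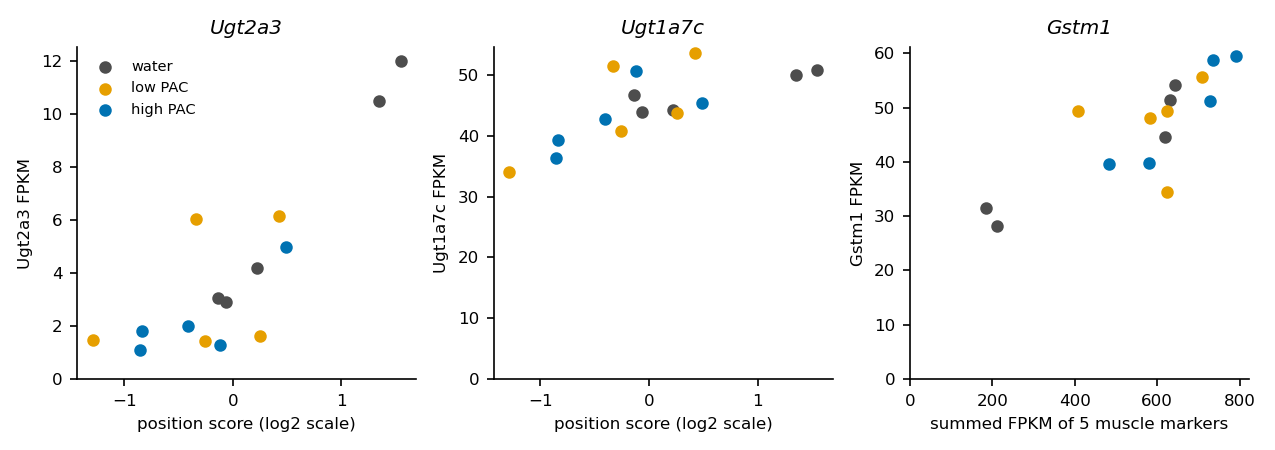
FPKM of Ugt2a3 and of Ugt1a7c against the position score (higher values are more proximal, log2 scale), and FPKM of Gstm1 against the summed FPKM of 5 smooth muscle markers, with 1 point per mouse. The points of Ugt2a3 over 10 FPKM are the 2 water mice with the highest position score, and those of Gstm1 under 32 FPKM are the 2 water mice with the least muscle.

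The genes around the conjugation reactions were read from a list of 61 genes, of which 59 were tested. With high PAC, 0 were called, and 1 was higher and 12 lower at an unadjusted p under 0.05 (22.0%, against 14.8% of all genes, 4.37% higher and 10.4% lower). For the supply of PAPS, the donor of sulfotransferases, Papss2, which makes it, had a log2 fold change of -0.37, Bpnt1, which degrades its product, one of -0.29, and Slc35b2, which carries it into the Golgi, one of 0.21. For the supply of glutathione, Gclm, a subunit of the enzyme of the first step, had -0.20 and Gsr, which reduces oxidized glutathione, -0.27. None of the 5 genes listed under the supply of UDP-glucuronic acid had an unadjusted p under 0.05. That list also holds Slc35a1, a carrier of CMP-sialic acid. The efflux pumps of conjugates Abcc2 and Abcc3 had -0.57 and -0.37, and the acetyltransferase Nat2 had -0.25. Of the 14 regulators, 5 had an unadjusted p under 0.05, namely Nfe2l2, which encodes Nrf2, with -0.22, Ahr, the aryl hydrocarbon receptor, with -0.19, the xenobiotic receptors Nr1i2 and Nr1i3 with -0.17 and -1.21, and Hnf4a, a factor of epithelial differentiation, with -0.25. Nr1i3, also named CAR, had the smallest p of the list (unadjusted p = 0.0029, adjusted p = 0.193; exact permutation p of 0.0317). With low PAC, 2 of the 59 were lower at that limit (As3mt and Nr1i3) and none higher (3.39%, against 3.61% of all genes). Between the fractions 0 of the 59 were called, and at an unadjusted p under 0.05 As3mt and Inmt were higher and Nr1i2 lower with high PAC (5.08%, against 3.89% of all genes).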

How the data were processed

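RNA from ileum of 15 mice, 5 per group, was sequenced by the authors on a BGISEQ-500 platform as 1 library per mouse and mapped to the mouse build mm10. The methods of the study name Bowtie2, while the submitters' processing notes name HISAT and DESeq2, and the tool that made the counts is not given in the sources used here. The authors deposited an expected count (an estimate of read pairs per gene that need not be whole) and FPKM for each gene and mouse, and genes under 0.01 FPKM are not listed, so that a gene missing in a mouse was set to 0. Total expected counts of 15963086 to 17903886 per mouse limit the precision of members under 1 FPKM. Mice were numbered from 1 to 5 in each group by their titles, and the p-values measure the spread between these mice.

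Expected counts were rounded to whole numbers and tested over all genes with edgeR (version 4.0.16, R 4.3.3), using filterByExpr, TMM factors and the quasi-likelihood test in 1 model of all 15 mice. p-values were adjusted by Benjamini-Hochberg over the 14386 genes tested, and 0.05 was the threshold. For single members, an exact permutation test, two-sided, was run on log2(FPKM + 0.1) (scipy 1.17.1). Relations across mice were tested by permutation with 100000 resamples. Group means were subtracted first, and the remainders were permuted over all 15 mice. This does not allow for the subtracted means, so these p-values can be too small, which matters most for those near 0.05. The steps were tested on simulated data. Alternatives were DESeq2 (1.42.0), limma (3.58.1, on log2(FPKM + 0.1)), other scaling factors, no filter, a robust fit, models of 2 groups, a replicate block and leaving out mice. CPM scaled by TMM factors, the exclusion of pairs of water mice and the second family of relations were added after seeing the data.

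Per-mouse values and tests are given for the 3 most abundant members of Gst, Ugt and Sult, for members at 1 FPKM or more with an unadjusted p under 0.05, and for those without overlap between water and a PAC group. The members and lists were chosen with earlier results of these data known. Shared sequence was counted in windows of 100 bases of GENCODE transcripts of GRCm38. Protein sequences were not analysed here.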

Additional observations from a re-analysis of the deposited data

Results flagged for a closer look

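In 9 of 90 groups of 5 mice (30 members in 3 groups), 1 mouse stood apart from the other 4 by Dixon's test at the 95% level, which chance alone does in about 1 of 20 groups. Over all 12429 genes at 1 FPKM or more the same test set a mouse apart in 7.94% of groups, and the 90 groups are not independent, since they hold the same mice. Low PAC replicate 4 was the high mouse set apart for 2.82% of these genes and high PAC replicate 3 for 7.85%, and each other mouse for under 1%. Low PAC replicate 4 was the high mouse for Gsta4 (57.0 FPKM, next 36.1), Gstp1 (562 FPKM, next 407) and Gstp2 (86.5 FPKM, next 65.4). High PAC replicate 3, whose FPKM sum to more than those of any other mouse, was the high mouse for Gsto1 (372 FPKM, next 279), Gstp2 (78.5 FPKM, next 70.5) and Ugt2b35 (13.7 FPKM, next 9.88). Water replicate 5, with the highest position score, was the high mouse for Gstm3 (38.4 FPKM, next 15.6) and Gstm6 (5.51 FPKM, next 3.03). High PAC replicate 2, with the highest position score of its group, was the high mouse for Ugt2a3 (4.98 FPKM, next 2.02). The part of scaling and position in these values was not tested.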

How the results depend on the processing

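No member was called in any comparison in any of 26 fits, with a smallest adjusted p of 0.0542, and 27 of 33 log2 fold changes kept their direction in all of them. The number of members at an unadjusted p under 0.05 with high PAC, 7 as reported, was 11 with limma on log2(FPKM + 0.1) (9 higher, 2 lower), 3 without water mice 1 and 3, and 5 to 10 without single mice. With low PAC, 2 as reported, it was 4 with limma on FPKM, 1 in a model of the 2 groups only, 1 without water mice 1 and 3, and 1 to 4 without single mice. With the mouse number as a replicate block this count was 0. Of 5 pairs of mice of the same number, 3, 2 and 0 correlated by over 0.1 for high PAC and water, low PAC and water, and high and low PAC. In the same order, 1, 2 and 0 mice correlated best with their own number. The mean r was 0.149, 0.123 and -0.123 for pairs of the same number and -0.038, -0.031 and 0.032 for other pairs. With 5 pairs per comparison and no test, this cannot settle whether the numbers pair the mice. The block changed no call. For high against low PAC, 1 as reported, the count was 0 to 1 without single mice. The causes were not tested.

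The log2 fold changes that turned sign were close to 0. Limma was run on FPKM and so changed both the test and the scale, and there the median of all genes lay at 0.09 with high PAC and 0.04 with low PAC, against 0.00 and -0.01 as reported. That of Gsto1 with low PAC (-0.00 as reported) was 0.0135 with RLE factors and with DESeq2, 0.0273 with upper-quartile factors, 0.0454 with limma on FPKM, 0.0173 without the filter, 0.0137 in the model of 2 groups, 0.0453 without water mice 1 and 3, and -0.0644 to 0.0298 without single mice. That of Gstp1 with low PAC (-0.00 as reported) was, in the same order, 0.0136, 0.0135, 0.0270, 0.0334, 0.0173, 0.0126, 0.0689 and -0.133 to 0.0438. Gsto1 with high PAC was -0.0403 without water mice 4 and 5 and -0.0383 to 0.0597 without single mice. Without single mice Gstp1 with high PAC was -0.00929 to 0.0867, Gstp2 with low PAC was -0.0497 to 0.0719, and Gsta4 between the fractions was -0.0373 to 0.234.

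On CPM scaled by TMM factors in place of FPKM, the exact permutation p with high PAC passed 0.05 for Sult1b1 (0.0317) and Ugt1a7c (0.0397) and no longer did for Gstp2 (0.476) and Ugt2b35 (0.0873). At a limit of 1 FPKM there were 30 members. Depth limits the 7 members under 1 FPKM.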
